A study of Mus musculus with 69 samples.

Results

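The Zfp genes, whose symbol stands for zinc finger protein followed by a number, were followed in mouse embryonic stem (ES) cells after the level of Oct3/4 was changed. A gene was taken where an oligo had a single gene symbol that starts with Zfp and a digit, apart from Zfp42, which was left out as a marker of ES cells. This gave 91 of 5147 named genes on the time course arrays and 150 of 8973 named genes on the reference RNA arrays, 184 genes in all, of which 57 were on both. In 6 genes the current symbol differs from the Zfp symbol that chose them, as in Ltn1 (Zfp294), Rnf115 (Zfp364) and Zbtb18 (Zfp238). Others, such as Zfp932, Zfp976 and Zfp518b, were listed by the study under a symbol that is not a Zfp name and entered through their current symbol.

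Most Zfp proteins carry C2H2 zinc fingers, short folds held by a zinc ion that read DNA sequence. Many also carry a KRAB domain, which recruits the co-repressor Trim28 and the histone methyltransferase Setdb1 to silence mobile elements and imprinted genes in ES cells. The symbol is a name by structure, so that it also covers proteins that bind RNA through CCCH fingers and ubiquitin ligases with a RING finger. In many mouse Zfp genes that lie in clusters the sequence is alike, and oligos of such genes may take up RNA of their relatives, which was not tested.

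ZHTc6 and ZHBTc4 are single ES cell lines, both derived from CGR8 cells. In ZHTc6 cells, which keep a single intact allele of Pou5f1, the gene of Oct3/4, a transgene of Oct3/4 is switched on once Tet is withdrawn. In ZHBTc4 cells the only working copy is a transgene, which Tet shuts off. Each line was sampled at 24, 48, 72, 96 and 120 h with 3 samples per time point, and each sample was run against the 0 h RNA of its line as a dye-swapped pair, on 60 arrays in all. A further 6 arrays compared 0 h RNA of ZHTc6 and ZHBTc4 cells (3 each) with a reference RNA pooled from mouse cell lines, and 3 arrays compared EB5 ES cells that received siTcl1 at 560 uM, siTcl1 at 1120 uM or siGFP with the same reference, 1 array a condition. The doses and their unit are given as labelled, and whether the unit is right could not be checked. Array values are relative levels in a cell population, so that fewer cells of a type and less RNA per cell cannot be told apart.

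Oct3/4 binds an octamer, ATGCAAAT, and promoters that hold these letters are shown because Oct3/4 was the gene changed in both lines. The window from 250 bases before to 50 after the start (RefSeq, GRCm38.p6) was found for 152 of the 184 genes, and 5 of them (3.29%) held the octamer on either strand, against 532 of 27025 genes (1.97%). The octamer or its reverse complement is in capitals, each line reads along the strand of its gene, and both sites of Zfp263 are given.
Zfp296, chr7:19577166-19577193, plus strand: ggagggcacaATTTGCATacaggtccct
Zfp263, chr16:3743858-3743885, plus strand: aaactttcctATGCAAATctgagccagg
Zfp263, chr16:3743997-3744024, plus strand: ccgctcttttATGCAAATtttccttgtc
Zfp120, chr2:150136852-150136879, minus strand: tggtactgaaATGCAAATttctacagac
Zfp207, chr11:80383103-80383130, plus strand: cctcccttcaATTTGCATacgggatagc
Zfp791, chr8:85119872-85119899, minus strand: aaccgagaatATTTGCATtcccttattc
The octamer of Zfp296 begins at position -111 relative to the start. A match of letters is a description of the window and not a bound site. CpG pairs were more frequent in Zfp promoters (median 5.52 per 100 bases) than over all genes (2.34). For both the octamer and CpG, all genes were taken without a filter on gene type, and the part of gene type was not tested.

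Of the genes with an octamer, 3 were on the time course arrays. Over the 5 days, Zfp296 fell by 0.28 in ZHTc6 cells and by 2.01 in ZHBTc4 cells on the log2 scale. Zfp263 fell by 0.23 in ZHTc6 cells and by 0.39 in ZHBTc4 cells. Zfp120 fell by 0.16 in ZHTc6 cells and was at 0.04 in ZHBTc4 cells (limma, adjusted p = 0.499).

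The names need care. Of the 91 genes, 47 were named by the annotation of the arrays and 44 only by tables of the study. Of the 53 oligos that those tables alone named, 49 stand in a table of the ZHBTc4 response at 24 h, so that these genes entered partly through a readout of these samples. Shares are therefore set beside those of all features and of genes named in the same way. Beside the Zfp genes, Pou5f1 fell by 2.12 to 2.75 in ZHBTc4 cells at the 5 time points. In ZHTc6 cells it had means of 0.12, 0.17, 0.93, 0.37 and 0.69 at 24 to 120 h and passed the test only at 120 h (adjusted p = 0.0154). ZHTc6 sample 3 lay apart, at 0.63 at 24 h against -0.22 and -0.05 in the other samples, and at -0.07 at 72 h against 1.30 and 1.56. Without it the means were -0.13, 0.04, 1.43, 0.70 and 0.64, and only 72 h passed the test (adjusted p = 0.017, against 0.0884 at 120 h). The median of all features in ZHTc6 cells was 0.10 at both 24 and 48 h, so that changes there are relative to a small general shift. Both arrays of a dye-swapped pair agreed least in ZHBTc4 sample 1 at 24 h (r = 0.0535, against 0.835 in the best pair).

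In ZHTc6 cells Zfp genes were mostly lower at first. At 24 h, 54 of 91 were lower and 12 higher (limma, adjusted p under 0.05 over all features), where 55.5% of all features were called, 24.2% lower and 31.3% higher. The median Zfp gene was at -0.56 on the log2 scale, and that of all features at 0.10. Against genes named in the same way the gap was smaller. By annotation the medians were -0.26 for Zfp genes and -0.13 for all genes, and by the tables alone -0.68 and -0.47. Of the 47 genes named by annotation 48.9% were lower, against 37.6% of all genes named so. Of the 44 named by the tables alone 70.5% were lower, against 54.8%. At 48 h, 53 were lower and 17 higher (60.4% of all features called, 25.4% lower and 35% higher), with a median of -0.47. The share lower was then 46.8% of Zfp genes named by annotation against 39.3% of all such genes, and 70.5% of those named by the tables against 54.9%.

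The pattern of ZHTc6 cells turned after 48 h. At 72 h, 22 were lower and 8 higher (19.3% of all features called, 10.6% lower and 8.68% higher), with a median of -0.08. By naming, 17% and 31.8% were lower, against 14% and 22.9% of all genes named by annotation and by the tables. At 96 h, 33 Zfp genes were higher and 13 lower (34.7% of all features called, 18.4% higher and 16.3% lower). At 120 h, 23 were lower and 16 higher (28.8% called, 13.1% lower and 15.6% higher), and the shares lower by naming were 23.4% and 27.3%, against 14.5% and 21.4%. The share higher at 96 h was near the background by naming, at 29.8% of Zfp genes named by annotation against 29.7% of all such genes, and at 43.2% of those named by the tables against 43.7%. Leaving out a single ZHTc6 sample took the genes called at 96 h to between 24.2% and 28.6% of the 91, and those called at 72 h to between 11.0% and 14.3%.

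**Figure D1:**
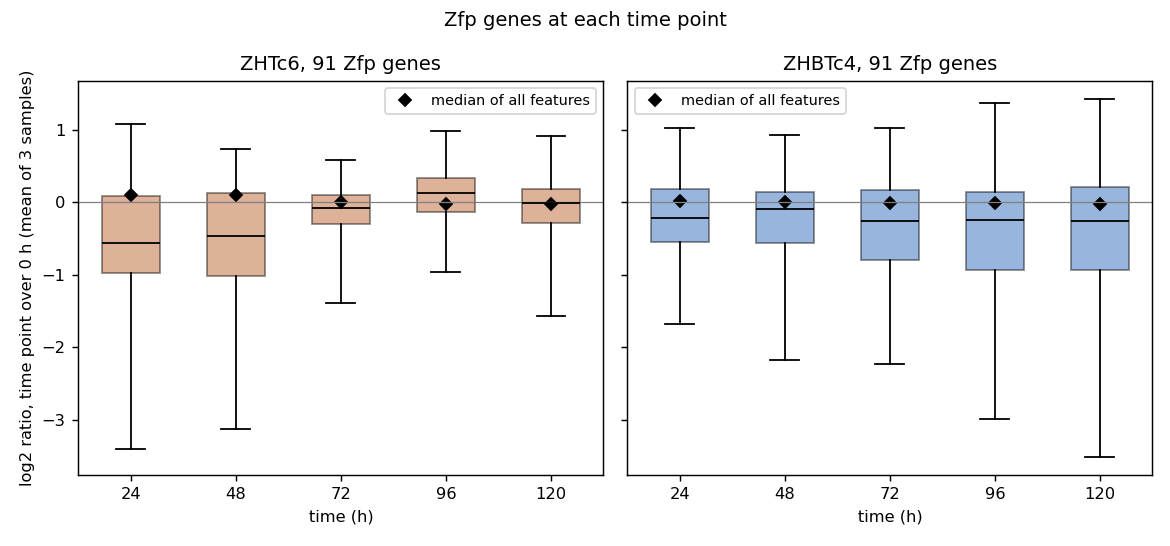
Log2 ratio of the 91 Zfp genes over 0 h (vertical axis) at 24 to 120 h (horizontal axis), ZHTc6 cells left and ZHBTc4 cells right. Box plots are over genes (each the mean of 3 samples), with whiskers to the lowest and highest gene. Diamonds mark the median of all features, which include unnamed oligos. At 24 h in ZHTc6 cells the medians of all genes named by annotation and by the tables alone were lower, at -0.13 and -0.47. In ZHTc6 cells most genes lie below the diamonds at 24 and 48 h, with medians of -0.56 and -0.47, and return towards 0 later, with a median of 0.12 at 96 h.

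Of the 51 Zfp genes that were lower at both 24 and 48 h in ZHTc6 cells, 24 were higher at 96 h, 8 were still lower and 19 did not pass the test. Over all features lower at both early times, 38.5% were higher and 17.1% lower at 96 h. The 5 genes lower at all 5 time points (5.49%, against 2.74% of all features, and 3.93% and 6.66% of those named by annotation and by the tables) were Zfp276, Zfp518b, Zfp598, Zfp707 and Zfp976. Zfp598, a ubiquitin ligase that senses collided ribosomes, fell by 0.56 ± 0.16, 0.41 ± 0.01, 0.29 ± 0.05, 0.35 ± 0.01 and 0.63 ± 0.05 at 24 to 120 h (SD, n = 3). The 10 genes higher at both early times (11%, against 26.1% of all features) were Zfp248, Zfp28, Zfp40, Zfp410, Zfp503, Zfp60, Zfp637, Zfp647, Zfp653 and Zfp91. By naming this share was nearer the background, at 14.9% against 18.9% by annotation and 6.82% against 7.57% by the tables.

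The clearest case of an early fall was Zfp932, which rests on 1 oligo that only the tables of the study named, as 2310001H12Rik. In the 3 ZHTc6 samples it was at -3.70, -3.70 and -2.79 at 24 h, and at -3.00, -3.03 and -3.36 at 48 h. At 96 h it was at 0.66, 0.28 and 0.29 (mean 0.41, adjusted p = 0.122). No sample at 24 or 48 h came near one at 96 h. At 120 h it was at -0.12, -0.80 and -0.65 (adjusted p = 0.0877). Zfp51 was at -2.85, -1.55 and -1.51 at 24 h in ZHTc6 samples, at 0.73, 0.57 and 0.40 at 96 h, when it was called higher (adjusted p = 0.022), and at 0.39, -0.05 and 0.07 at 120 h.

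The mean of 72 to 120 h minus that of 24 and 48 h, a test added after the data were seen, was higher in 56 and lower in 16 of 91 Zfp genes in ZHTc6 cells (66.9% of all features called, 29% higher and 37.9% lower). Zfp genes named by annotation were higher in 51.1%, against 45.9% of all such genes, and those named by the tables in 72.7%, against 64.2%. In ZHBTc4 cells 11 were higher and 31 lower (28.3% of all features called, 14.6% higher and 13.8% lower), and the share lower was 34% of those named by annotation against 18.3%, and 34.1% of those named by the tables against 24.3%. The difference of this measure between the lines was positive in 57 and negative in 11 (57.7% called, 24.9% positive), with a positive share of 51.1% by annotation against 39.6%, and of 75% by the tables against 53.8%. For Zfp932 it rose by 3.12 ± 0.34 in ZHTc6 cells and was at -0.20 ± 0.07 in ZHBTc4 cells (SD, n = 3, adjusted p = 1.22e-06 and 0.288).

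In ZHBTc4 cells the number of lower Zfp genes grew up to 96 h, and so did the share of all features lower. At 24 h, 28 were lower and 5 higher (14.1% of all features called, 7.33% lower and 6.73% higher), with a median of -0.21. Of those named by annotation 27.7% were called, against 16.4% of all such genes. Of the genes that the tables alone named, 45.5% were called, against 44.4% of all such genes. Of the 91 genes 36.3% were called at 24 h, against 19.8% without ZHBTc4 sample 1, 23.1% without sample 2 and 15.4% without sample 3, so that the share was smaller whichever ZHBTc4 sample was left out.

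At 48 h, 33 Zfp genes were lower and 11 higher in ZHBTc4 cells (25.9% of all features called, 13% in each direction). The share lower was 27.7% by annotation against 18.7% of all such genes, and 45.5% by the tables against 35.9%. At 72 h, 44 were lower and 16 higher (39.8% called, 19.9% lower). At 96 h, 47 were lower and 18 higher (46% called, 23.2% lower), and at 120 h 44 were lower and 20 higher (45.7% called, 23.2% lower). At 96 h, 42.6% of Zfp genes named by annotation were lower against 28.8%, and 61.4% of those named by the tables against 42.3%. The medians were -0.09 at 48 h and -0.26, -0.24 and -0.26 at 72, 96 and 120 h. That at 24 h was -0.21, so that the median did not fall steadily. All 23 genes lower at both 24 and 48 h were also lower at 96 h, as were 89.8% of all features lower at both early times. Lower at all 5 time points were 20 genes (22%, against 4.19% of all features), among them Zfp219, Zfp281, Zfp292, Zfp296, Zfp36l1, Zfp445, Zfp518b and Zfp979. By naming this was 14.9% against 5.48% and 29.5% against 17.4%. Higher at all 5 were Ltn1, Zfp706 and Zfp82 (3.3%, against 3.57% of all features).

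**Figure D2:**
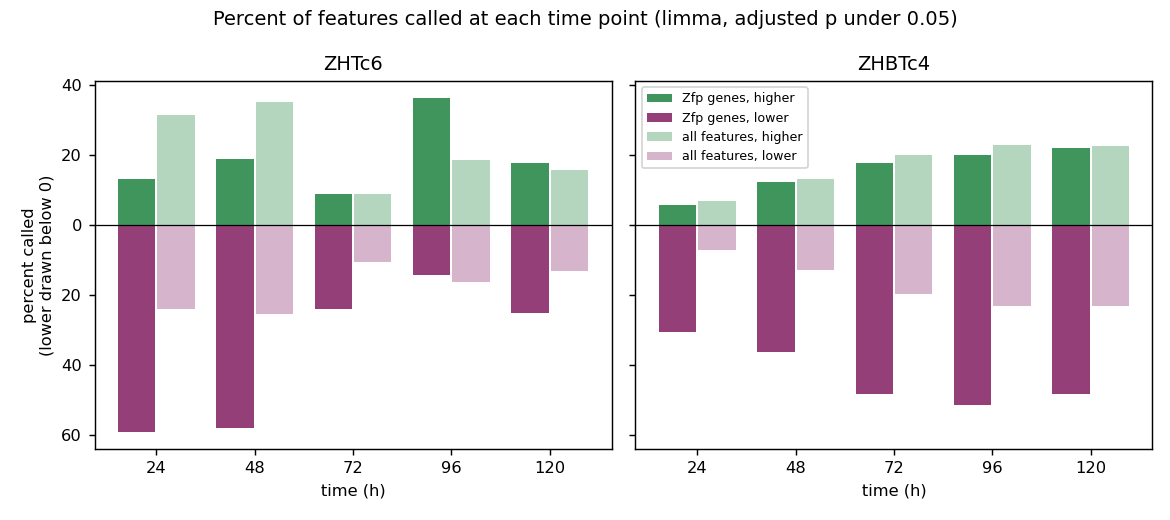
Percent of features called higher (above 0) or lower (drawn below 0) than 0 h (vertical axis, limma, adjusted p under 0.05) at 24 to 120 h (horizontal axis), ZHTc6 cells left and ZHBTc4 cells right, for Zfp genes and all features. In ZHTc6 cells the larger share of Zfp genes is lower at 24 h (54 of 91) and higher at 96 h (33 of 91), whereas in ZHBTc4 cells the lower share stays the larger throughout.

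Over the 5 days, the test on the mean of the time points in each sample gave 16 higher and 45 lower Zfp genes of 91 in ZHTc6 cells (49.7% of all features called, 29.3% higher and 20.4% lower). In ZHBTc4 cells 18 were higher and 45 lower (46.5% called, 23.7% higher and 22.8% lower). The shares lower by naming were 42.6% of Zfp genes named by annotation against 28.8% of all such genes in ZHTc6 cells, and 38.3% against 28.7% in ZHBTc4 cells. For those named by the tables they were 56.8% against 42.8% in ZHTc6 cells and 61.4% against 43.7% in ZHBTc4 cells.

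Genes linked with ES cells were among those that fell. Zfp296, which is expressed in ES cells and takes part in their self-renewal, was at -1.90, -2.02 and -2.12 over the 5 days in ZHBTc4 samples (adjusted p = 3.6e-07). It had already fallen by 1.56 ± 0.20 at 24 h (SD, n = 3). In ZHTc6 samples it was at 0.37, 0.14 and 0.30 at 48 h, and at -1.09, -1.01 and -1.21 at 120 h, so that a small rise gave way to a fall.

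Zfp281, a factor that binds GC-rich DNA and Nanog, behaved differently. In ZHTc6 samples it was at -2.23, -1.86 and -1.33 at 24 h, at -0.13, -0.32 and -0.22 at 96 h (adjusted p = 0.106) and at -0.32, -0.58 and -0.55 at 120 h, when it was called lower again (adjusted p = 0.0134). In ZHBTc4 samples it was at -0.57, -0.46 and -0.92 at 24 h and at -2.05, -1.71 and -2.18 at 120 h. The fall was thus deeper at 24 h than at 120 h in ZHTc6 cells and deeper at 120 h than at 24 h in ZHBTc4 cells. Its 3 oligos fell by 0.96 to 1.16 in ZHTc6 cells and by 1.18 to 1.58 in ZHBTc4 cells.

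Zfp219, a zinc finger protein found with Nanog in ES cells, was at 0.75, 0.56 and 0.88 at 48 h and at -0.71, -0.70 and -0.71 at 120 h in ZHTc6 samples. In ZHBTc4 samples it was at -1.58, -1.43 and -1.41 at 48 h and at -1.69, -1.52 and -1.66 at 120 h. Over the 5 days it was at 0.08 ± 0.06 in ZHTc6 cells and fell by 1.55 ± 0.04 in ZHBTc4 cells (SD, n = 3). The 3 samples of either line lay close together and those of both lines did not overlap.

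Zfp445, a KRAB protein that protects imprints, was at -0.81, -0.63 and -0.73 over the 5 days in ZHTc6 samples and at -1.15, -1.34 and -1.41 in ZHBTc4 samples. At 96 h it was slightly higher in ZHTc6 cells (0.21, adjusted p = 0.0463) and lower by 1.51 in ZHBTc4 cells (adjusted p = 9.31e-06). In ZHBTc4 cells all 5 time points passed the test. Zfp36l1, a CCCH protein that binds AU-rich sites and starts the decay of mRNA, fell by 0.66 ± 0.09 in ZHTc6 cells and by 1.41 ± 0.20 in ZHBTc4 cells (SD, n = 3). It was at -1.97, -1.35 and -0.69 at 24 h and at 0.08, -0.22 and -0.05 at 120 h in ZHTc6 samples.

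**Figure D3:**
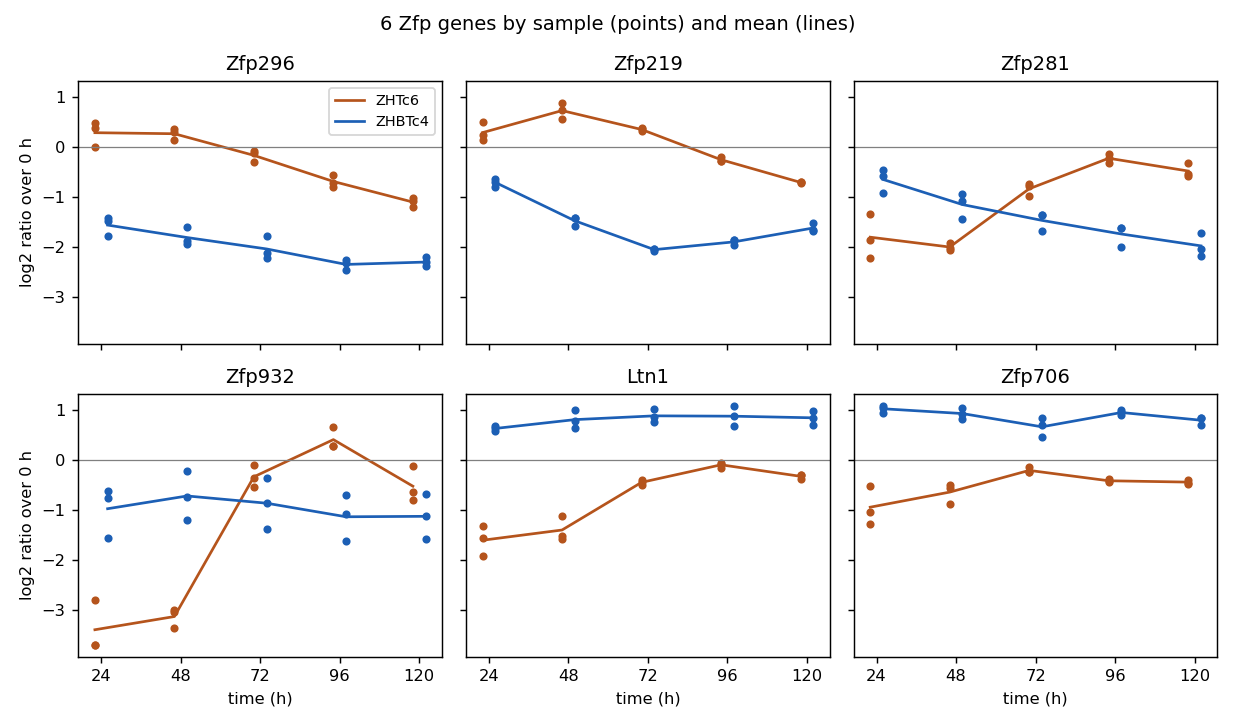
Log2 ratio over 0 h (vertical axis) of Zfp296, Zfp219, Zfp281, Zfp932, Ltn1 and Zfp706 in each of 3 samples (points) with their mean (lines) at 24 to 120 h (horizontal axis) in ZHTc6 and ZHBTc4 cells. Ltn1 and Zfp706 are above 0 at every time point in ZHBTc4 cells, whereas Zfp932 has a mean of -3.40 at 24 h and of 0.41 at 96 h in ZHTc6 cells.

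Further large falls were in genes without a firmly known role in ES cells. Zfp979 fell by 1.40 ± 0.08 in ZHTc6 cells and by 2.29 ± 0.30 in ZHBTc4 cells (SD, n = 3). Zfp518b fell by 1.09 ± 0.07 and Zfp976 by 1.51 ± 0.05 in ZHTc6 cells, against 2.19 ± 0.14 and 1.09 ± 0.18 in ZHBTc4 cells. Zfp292 fell by 0.82 ± 0.12 in ZHTc6 cells and by 1.49 ± 0.11 in ZHBTc4 cells. All 4 were lower in each of the 6 samples. In ZHTc6 cells Zfp932 (-1.40), Zfp280d (-0.72), Zfp51 (-0.68) and Zfp106 (-0.65) were also among the 12 largest falls, and in ZHBTc4 cells Zfp710 (-1.23), Zfp704 (-1.21) and Zfp553 (-1.03).

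The rises were smaller than the falls. In ZHTc6 cells Zfp672 rose by 0.63 ± 0.21, Zfp60 by 0.46 ± 0.05 and Zfp248 by 0.43 ± 0.08 (SD, n = 3). Zfp618, Zfp637, Zfp354c, Zfp592, Zfp688, Zfp410, Zfp503 and Zfp653 rose by 0.45 to 0.23. In ZHBTc4 cells Zscan29 rose by 0.75 ± 0.19, Zfp672 by 0.75 ± 0.29, Zfp655 by 0.67 ± 0.20 and Zfp52 by 0.57 ± 0.07, whereas Zfp386, Zfp148, Zfp82, Zfp804a and Zfp248 rose by 0.51 to 0.40. Zfp91, a ubiquitin ligase with zinc fingers, was at 0.57, 0.31 and 0.40 in ZHTc6 samples, against -0.03, 0.21 and 0.37 in ZHBTc4 samples. The fall in ZHBTc4 cells of Zbtb18, a repressor with a BTB domain that acts in brain development, was 0.96 ± 0.01, and that in ZHTc6 cells 0.33 ± 0.14 (SD, n = 3). Zfp423, a factor of neural and fat cell development, was at 0.06 ± 0.03 in ZHTc6 cells and fell by 0.49 ± 0.12 in ZHBTc4 cells.

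Over the 5 days 27 Zfp genes (29.7%) were lower in both lines, against 10% of all features. By naming, the share was 23.4% of Zfp genes named by annotation against 14% of all such genes, and 36.4% of those named by the tables against 23.6%. Higher in both were Zfp248, Zfp637 and Zfp672 (3.3%, against 9.05% of all features). Opposite calls were found for 13 (14.3%, against 7.25% of all features), which by naming was near the background, at 10.6% against 9.41% by annotation and 18.2% against 15.6% by the tables. The difference between ZHTc6 and ZHBTc4 cells itself passed the test for 54, with 31 positive and 23 negative (41.4% of all features called). This was not above the background by naming throughout, at 55.3% against 52.8% by annotation and 63.6% against 71.9% by the tables. Each line is set against its own 0 h RNA, so that a difference at 0 h and a difference in response both enter this contrast. The part of either was not tested.

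The largest negative differences were in genes that rose in ZHBTc4 cells. Ltn1, the listerin ubiquitin ligase that clears peptides from stalled ribosomes, was at -1.92, -1.57 and -1.33 at 24 h in ZHTc6 samples, against 0.58, 0.68 and 0.64 in ZHBTc4 samples. Its difference over the 5 days was -1.59 ± 0.10 (SE, adjusted p = 2.62e-05). The ZHTc6 samples lay below 0 and the ZHBTc4 samples above it at all 5 time points.

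Zfp706, a small protein known from screens for genes that ES cells need to leave self-renewal, was at -0.53, -0.58 and -0.48 over the 5 days in ZHTc6 samples and at 0.86, 0.88 and 0.89 in ZHBTc4 samples. The difference was -1.40 ± 0.07 (SE, adjusted p = 9.25e-06). Both of its oligos had these signs, at -0.53 and -0.53 in ZHTc6 cells and at 0.43 and 1.32 in ZHBTc4 cells.

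Zfp667 and Zfp28 are neighbours in the gene order of RefSeq and moved in opposite ways in the mean over the 5 days. Zfp667 was at -0.62, -0.43 and -0.52 in ZHTc6 samples and at 0.78, 0.91 and 0.70 in ZHBTc4 samples. Zfp28 was at 0.08, 0.25 and 0.20 in ZHTc6 samples and at -0.51, -0.39 and -0.57 in ZHBTc4 samples. The difference between the lines was -1.32 ± 0.09 for Zfp667 and 0.66 ± 0.08 for Zfp28 (SE, adjusted p = 3.63e-05 and 0.000637). In each gene the 5-day means of the samples of both lines did not overlap, yet Zfp667 was called higher at 96 h in both lines.

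The largest positive differences were in Zfp296 (1.73 ± 0.08) and Zfp219 (1.63 ± 0.07, SE). Zfp618 was at 0.44, 0.40 and 0.50 over the 5 days in ZHTc6 samples and at -0.47, -0.67 and -0.94 in ZHBTc4 samples, but in the weakly paired ZHBTc4 sample 1 it was at 1.28 at 24 h, against -0.37 and -0.64 in the other ZHBTc4 samples. Zfp688 and Zfp354c had differences of 1.07 ± 0.07 and 1.05 ± 0.08 (SE). Zfp623 (1.14), Zfp518b (1.10) and Zfp827 (0.93) completed the largest positive differences. Zfp655 (-0.98), Zfp639 (-0.97), Zfp51 (-0.94), Zfp804a (-0.81) and Zfp106 (-0.75) followed among the negative ones.

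**Figure D4:**
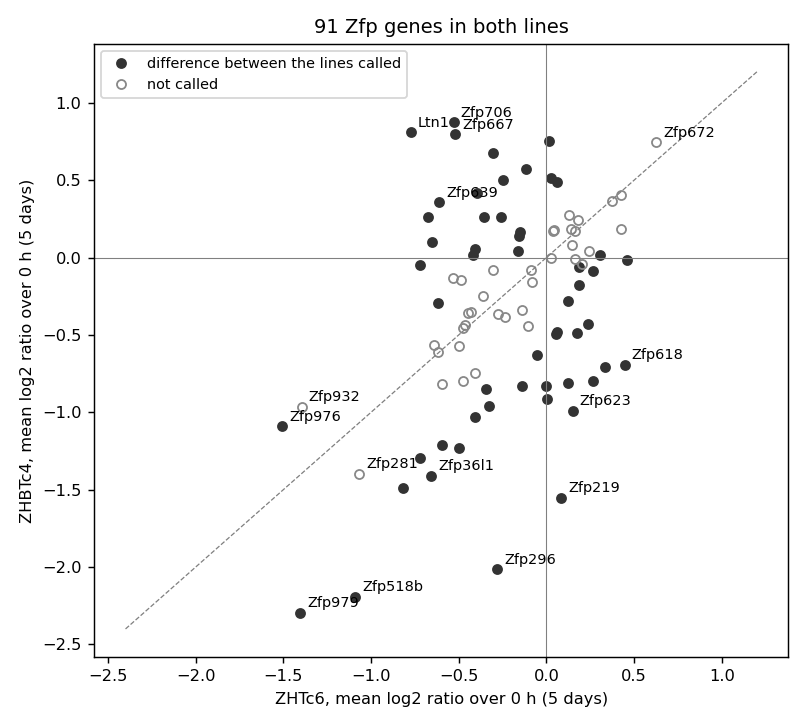
Mean log2 ratio over 0 h across the 5 days in ZHTc6 cells (horizontal axis) and in ZHBTc4 cells (vertical axis) for 91 Zfp genes, where filled points passed the test of the difference between the lines and the dashed line marks equal change. Ltn1, Zfp706 and Zfp667 lie in the upper left, with Zfp296 and Zfp219 far below the dashed line.

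Of the 17 Zfp genes with several oligos, oligos were called in opposite ways in 2 in ZHTc6 cells (Zfp148 and Zfp655) and in 3 in ZHBTc4 cells (Zfp106, Zfp451 and Zfp68). The oligos of Zfp106, an RNA-binding protein needed by motor neurons, were at 0.93 and -0.72 in ZHBTc4 cells but at -0.60 and -0.70 in ZHTc6 cells. The 3 oligos of Zfp655 were at 0.24, -0.68 and -0.46 in ZHTc6 cells. The gene means of these 5 genes thus hide unlike oligos. The range over the oligos of a gene had a median of 0.54 in ZHTc6 cells and of 0.56 in ZHBTc4 cells.

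Zfp genes cluster in the genome. In the RefSeq gene order, 68 of the 183 that were found lay within 3 protein-coding genes of another, in 24 groups, the largest of 8 genes. Neighbours could differ in direction. In a group of 6, Zfp84 fell by 0.48 in ZHBTc4 cells while Zfp82 rose by 0.49 and Zfp566 fell by 0.44. In another, Zfp51 fell by 0.68 in ZHTc6 cells while Zfp54 was at 0.04 and Zfp52 at -0.11.

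Of 16 measured genes of the KRAB co-repressor list, 1 was higher and 10 lower in ZHTc6 cells, and 2 were higher and 8 lower in ZHBTc4 cells. Of all genes named by annotation, as 12 of the 16 were, 56.5% were called in ZHTc6 cells, with 28.8% lower, and 59.1% in ZHBTc4 cells, with 28.7% lower. Trim28, the co-repressor that binds the KRAB domain, was at -0.02, 0.03 and 0.01 at 24 h and at -0.88, -0.98 and -0.88 at 120 h in ZHTc6 samples. In ZHBTc4 samples it was at 0.25, -0.24 and -0.44 at 24 h and at -2.51, -1.94 and -1.96 at 120 h. Trim28 did not pass the test at 24 h in ZHTc6 cells (limma, adjusted p = 0.974). A link between Trim28 and the changes of Zfp genes was not tested. Setdb1 fell by 1.10 ± 0.28 in ZHTc6 cells and by 0.90 ± 0.20 in ZHBTc4 cells over the 5 days (SD, n = 3).

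The other lists are likewise to be read against the 49.7% of all features called in ZHTc6 cells and the 46.5% called in ZHBTc4 cells. Genes that the tables alone named were called more often, at 66.2% in ZHTc6 cells and 81.8% in ZHBTc4 cells. The annotation named only 1 of the 9 trophoblast markers, 4 of the 10 ES cell markers and 27 of the 44 genes of other zinc finger families. Of 9 measured partners of CCCH proteins in mRNA decay, 4 were lower in ZHTc6 cells and the other 5 did not pass the test, and 2 were higher and 4 lower in ZHBTc4 cells. Of 44 genes of other zinc finger families, such as Zbtb and Klf, 7 were higher and 20 lower in ZHTc6 cells, and 12 were higher and 19 lower in ZHBTc4 cells, with a median of -0.15 in either line. Markers of other cells moved in the same samples. Of 9 trophoblast markers 6 were higher and 1 lower in ZHTc6 cells (median 0.34), and 8 were higher in ZHBTc4 cells (median 3.62). Of 4 mesoderm markers 4 were higher in ZHTc6 cells (median 1.44), and 1 was higher and 1 lower in ZHBTc4 cells (median 0.02). Of 5 endoderm markers 4 were higher and 1 lower in ZHTc6 cells (median 0.32). In ZHBTc4 cells 2 of them were higher and 1 lower (median 0.07). Of 3 neural markers 2 were higher and 1 lower in ZHTc6 cells (median 0.29), and 2 were higher in ZHBTc4 cells (median 0.27). The 10 measured ES cell markers include Pou5f1, whose direction was set by the Tet switch in both lines. In ZHTc6 cells 9 of the 10 were lower and Pou5f1 was higher, and in ZHBTc4 cells all 10 were lower. The part of these markers in the changes of Zfp genes was not tested.

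Before the values at 0 h, it must be said that ZHBTc4 sample 3 stood apart. Over all features it correlated with the other ZHBTc4 samples at 0.823 and 0.819, which correlated with each other at 0.936, and with the ZHTc6 samples at 0.865 to 0.894. In 24 of 150 Zfp genes it differed more than 2-fold from the mean of the other ZHBTc4 samples, against 6 between samples 1 and 2. On these arrays the reference always carried the same dye, so that a dye effect and a difference from the reference cannot be told apart. All 9 measured ES cell markers were above the reference on all 6 arrays, and of 3 fibroblast markers none was above it on all 6. The fibroblast marker Col1a1 was above it in the ZHTc6 samples (0.30, 0.28 and 0.24) and in ZHBTc4 sample 3 (0.05).

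At 0 h, 52 of 150 Zfp genes were higher and 42 lower than in the reference RNA (60% of all features called), taking the mean of the 6 samples. The share called, 62.7%, was below the 70.4% of all named genes. In ZHTc6 cells alone the numbers were 42 and 41 (49.7% of all features and 61.8% of named genes called), and in ZHBTc4 cells 46 and 31 (49% and 59.5% called). The values ran from -3.57 to 4.32, and 94 genes were within 1.5-fold of the reference. Zfp882 was listed at 0 on all 6 arrays.

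The level farthest above the reference was that of Zfp981, at 5.34, 5.63 and 5.03 in ZHTc6 samples and at 2.41, 2.69 and 4.83 in ZHBTc4 samples. Zfp991 was at 3.83, 4.13 and 4.13 in ZHTc6 samples and at 2.31, 2.56 and 4.55 in ZHBTc4 samples. In both genes ZHBTc4 sample 3 lay with the ZHTc6 samples. Zfp936 averaged 3.41 ± 0.41, Zfp518b 3.37 ± 0.44 and Zfp296 2.57 ± 0.20 above the reference on the log2 scale (SD, n = 6), followed by Zfp33b (2.56), Zfp229 (2.36) and Zfp961 (2.35). Zfp518b and Zfp296 were thus above the reference at 0 h and fell over the 5 days in both lines.

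Below the reference was Zfp9, at -2.71, -4.39 and -4.10 in ZHTc6 samples and at -3.50, -2.31 and -4.42 in ZHBTc4 samples. Zfp503, which acts in the development of the striatum, was at -1.17, -1.28 and -1.15 in ZHTc6 samples and between -2.39 and -1.60 in ZHBTc4 samples. Neither gene reached the reference in any sample. Zfp365 (-1.54), Zfp618 (-1.32), Zfp398 (-1.26), Zfp948 (-1.22), Zfp943 (-1.09) and Zfp942 (-1.04) followed.

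Among genes with a known role, Zfp57, a KRAB protein that keeps imprints, was at 0.86, 1.11 and 0.72 in ZHTc6 samples and at 0.84, 0.66 and 0.85 in ZHBTc4 samples. Zfp281 averaged 0.68 ± 0.32, Zfp462 0.73 ± 0.21 and Zfp423 1.46 ± 0.13 (SD, n = 6). Zfp36, known as tristetraprolin and like Zfp36l1 a CCCH protein of mRNA decay, averaged -0.62 ± 0.19. All 5 passed the test against the reference. Zfp207, which helps chromosomes to align on the spindle, did not (adjusted p = 0.621), with 0.23, 0.67 and 0.55 in ZHTc6 samples and -1.31, -1.34 and 0.31 in ZHBTc4 samples.

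**Figure D5:**
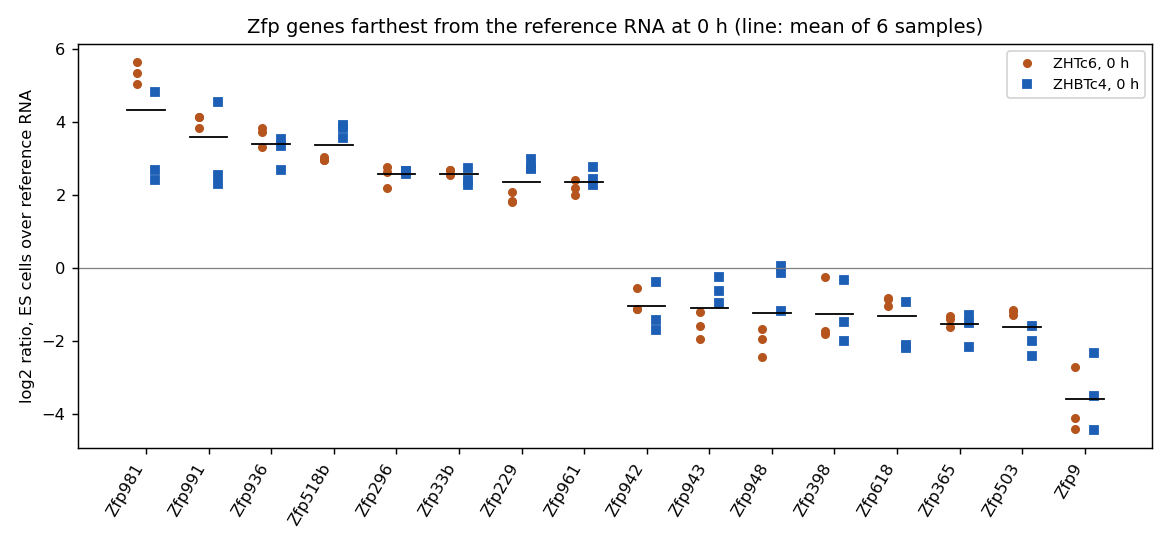
Log2 ratio of ES cells at 0 h over the reference RNA (vertical axis) for the 16 Zfp genes farthest from the reference (horizontal axis), with each of 3 ZHTc6 and 3 ZHBTc4 samples as a point and the mean of all 6 as a line. Zfp981 is highest with a mean of 4.32 and a wide spread within ZHBTc4 cells, and Zfp9 is lowest with a mean of -3.57.

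Between the lines at 0 h, 2 Zfp genes were higher and 10 lower in ZHTc6 cells, which is 8% (8.62% of all features and 12.1% of named genes called). An unadjusted p under 0.05 was found for 40 (26.7%, against 27.4% of all features). Zfp668 was at 2.56, 2.53 and 2.80 in ZHTc6 samples and at 0.77, 0.88 and 1.46 in ZHBTc4 samples, a difference of 1.59 ± 0.21 (SE, limma, adjusted p = 0.0177). Among genes that passed the test, the largest negative differences were in Zfp229 (-0.90), Zfp592 (-0.88), Zfp518b (-0.78), Zfp955a (-0.77) and Zfp61 (-0.67), whereas Zfp948 had a difference of -1.60 (adjusted p = 0.0596) and Zfp943 of -0.95 (adjusted p = 0.0842). Without ZHBTc4 sample 3, 47 of 150 were called, 22 higher and 25 lower (31.5% of all features and 33.9% of named genes called). The difference of Zfp981 was then 2.78 (adjusted p = 0.00522), in place of 2.02 (adjusted p = 0.125), and that of Zfp207 was 1.81 (adjusted p = 0.00568), in place of 1.27 (adjusted p = 0.162). Leaving out any other single sample left 0 Zfp genes called by limma (26 to 33 at an unadjusted p under 0.05, and at most 1.2% of all features called), so that the count depends on which samples are kept.

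In EB5 cells each siRNA condition had 1 array, so that no test was possible and values describe these arrays. Tcl1, the gene targeted by siTcl1, was lower by 1.73 at 560 uM and by 2.20 at 1120 uM than in siGFP cells on the log2 scale. Past 1.5-fold, 5 of 150 Zfp genes were higher and 7 lower at 560 uM (12.1% of all features and 7.7% of named genes past it), and 5 were higher and 12 lower at 1120 uM (15.9% and 9.96%). The median difference was -0.03 at 560 uM and -0.01 at 1120 uM. Both doses share the siGFP array.

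Past 1.5-fold in the same direction at both doses were 3 Zfp genes (2%, against 5.57% of all features and 3.44% of named genes), and all were lower. Zfp459 was at 1.56 over the reference at 560 uM and at 1.28 at 1120 uM, against 3.39 in siGFP cells. Zfp936 was at 3.09 and 2.84, against 3.89 in siGFP cells, and Zfp991 at 3.17 and 3.10, against 3.80. In the 6 samples at 0 h, which are of other lines than EB5, Zfp459 itself ran over 2.09, 2.62 and 2.21 in ZHTc6 cells and 0.70, 1.22 and 2.98 in ZHBTc4 cells. The range in ZHBTc4 cells, where sample 3 stood apart, was wider than either siTcl1 difference. That in ZHTc6 cells was narrower than either.

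Other values did not repeat between doses. Zfp952 was at -3.60 at 560 uM and at -0.22 at 1120 uM, against -3.94 in siGFP cells. Zfp277 was at 1.24 at 560 uM and at -1.16 at 1120 uM, against -0.02. Zfp296 was at 2.47 at 560 uM and at 1.89 at 1120 uM, against 2.69, and passed 1.5-fold only at the higher dose. Zfp281, at 0.69 and 0.63 against 0.79, stayed within 1.2-fold at both doses.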

How the data were processed

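Mouse ES cell RNA was measured on Agilent 60-mer arrays in 2 colours. Each deposited value is the log10 of red (Cy5) over green (Cy3) signal. The authors used Agilent Feature Extraction (version not given in the sources used here), which corrects background and dye bias, and no value passes -2 or 2. Signal intensities were not used here, hence weak spots were not removed. Precision is limited by how few arrays there are.

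Values were turned to log2 of the time point over 0 h, dye-swapped pairs averaged, and oligos averaged per gene. Of 22575 rows on the time course arrays, 216 numbered below any known oligo were removed, as were 211 that sat at -2 or 2 in over a 0.5 share of arrays, and all 91 Zfp genes passed. Names came from the annotation where it gives 1 gene (4262 rows), and otherwise from tables of the study. Where both named a row, 1135 of 1359 agreed, and rows that differed were left without a name. Fold change columns of those tables were not used. The ratio on reference arrays had its sign turned to ES cells over reference. The ZHTc6 120 h pair labelled 2 beside 0 h sample 1 was taken as sample 1.

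limma 3.58.1 in R 4.3.3 (with version 1.17.8 of data.table and 1.5.0 of statmod) tested each time point, the 5-day mean of a sample, the lines and 0 h, with Benjamini-Hochberg adjustment over all genes and unnamed oligos (20611 and 18443) and an adjusted p under 0.05. The test was checked on simulated data with independent noise, a check that does not cover samples that share their 0 h RNA. With siTcl1, 1.5-fold was the limit. The study describes samples as independent preparations, and time points of a number share their 0 h RNA. Same-numbered samples deviated together in ZHBTc4 cells (correlations of 0.098 to 0.511) and not throughout in ZHTc6 cells (-0.198 to 0.394).

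The members and lists were chosen with earlier results of these data known. Genes were named by rank: the 12 largest rises and falls of a line, the 8 largest differences each way between lines and from the reference, the 5 largest between lines at 0 h, those past 1.5-fold at both doses, genes with unlike oligos and genes with a listed role. Zfp598, Zfp82, the neighbours, the octamer genes, Zfp952, Zfp277 and Zfp207 were picked after their values were seen. Alternatives were the dyes, centring, scaling, oligos, names, filter, fit, block and each sample left out. Protein features were not used here.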

Additional observations from a re-analysis of the deposited data

Results flagged for a closer look

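In 13 Zfp genes the 5-day change was called in opposite ways in ZHTc6 and ZHBTc4 cells and the difference between the lines passed limma's test. Opposite calls were made for 14.3% of the Zfp genes, against 7.25% of all features, and by naming for 10.6% against 9.41% (annotation) and 18.2% against 15.6% (tables of the study). ZHTc6 minus ZHBTc4, on the log2 scale, it was -1.59 for Ltn1, -1.40 for Zfp706, -1.32 for Zfp667, -0.98 for Zfp655, -0.97 for Zfp639, -0.81 for Zfp804a, -0.75 for Zfp148 and -0.52 for Rnf115, which were lower in ZHTc6 cells and higher in ZHBTc4 cells. It was 1.14 for Zfp618, 1.07 for Zfp688, 1.05 for Zfp354c, 0.66 for Zfp28 and 0.66 for Zfp653, which were higher in ZHTc6 cells and lower in ZHBTc4 cells. These directions are those of the 5-day mean and did not hold at every time point. At 96 h Rnf115, Zfp148, Zfp655 and Zfp667 were called higher in both lines. At 120 h Rnf115 was called higher and Zfp804a lower in both. Oligos of Zfp148 and Zfp655 were called in opposite ways in ZHTc6 cells, and Zfp618 holds a 24 h value of 1.28 in ZHBTc4 sample 1 against -0.37 and -0.64 in the other samples.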

How the results depend on the processing

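Values are the percent of Zfp genes called, and the cause of a change was not tested unless given. At 24 h in ZHBTc4 cells, 36.3% were called, against 22.0% with the time point in Cy3 alone, 20.9% with the line fitted alone, 13.2% in the unmoderated test, 63.7% where all time points were fitted together with the replicate block and 62.6% without the block (15.4 to 36.3% with a sample left out). In ZHTc6 cells 33.0% at 72 h became 19.8% in Cy5 alone (11.0 to 38.5%), 50.5% at 96 h ran from 24.2 to 59.3%, 42.9% at 120 h became 26.4% in Cy3 alone (26.4 to 46.2%), and the 17.6% higher over the 5 days ran from 11.0 to 18.7%. Late minus early in ZHBTc4 cells, the 12.1% higher became 5.50% in Cy5 alone, 6.59% in Cy3 alone and 7.69% unmoderated (5.50 to 13.2%). Between the lines at 0 h, 8% became 2.67% with scaled arrays (0 to 31.3%). With siTcl1 a limit of 2-fold in place of 1.5-fold left 2.67% at 560 uM and 2.67% at 1120 uM. Adding the block to the joint fit thus moved the 24 h share little, and in no other share did the joint fit with the block differ by more than 1.5 times. Signs turned in 6 named genes: Zfp219 in ZHTc6 cells with scaled arrays (-0.0062), Zfp655 in ZHTc6 cells with its first oligo (0.24), Zfp106 in ZHBTc4 cells in Cy5 alone (-0.027) and without sample 2 (-0.0036 to 0.16 with a sample left out), Zfp503 in ZHBTc4 cells in Cy3 alone (-0.026) and without sample 3 (-0.016 to 0.11), Zfp827 in ZHTc6 cells in Cy3 alone (-0.034) and Zmym2 in ZHBTc4 cells without sample 3 (-0.34 to 0.029). The lower shares over the 5 days kept within 1.5 times under every alternative run.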

Other observations

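A further 120 oligos have a Zfp gene among several annotated genes and entered none of the counts. Over the 5 days 36 (30%) were higher and 20 (16.7%) lower in ZHTc6 cells, against 28.4% and 21.3% of all oligos, and 38 (31.7%) were higher and 32 (26.7%) lower in ZHBTc4 cells, against 24.2% and 23.3%. At 24 h in ZHTc6 cells 34 (28.3%) were higher and 38 (31.7%) lower, against 30.4% and 25.7%. The median of these oligos was -0.01, against -0.56 in the 91 Zfp genes and -0.26 in the 47 named by annotation. Oligos with several annotated genes entered the 91 where the tables of the study named 1 of those genes. The 120 oligos and the 91 genes were thus chosen in different ways, and the former were not averaged per gene. At 96 h 49 were higher and 8 lower, a share higher of 40.8%, against 19.2% of all oligos.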
